A study of Mus musculus with 8 samples.

Results

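The epidermal growth factor (EGF) family was followed in mouse embryonic fibroblasts (MEFs) through 9 genes: the ligands Ereg, Areg, Hbegf, Tgfa, Btc and Nrg1 and the receptors Egfr, Erbb2 and Erbb3. Each gene's level was the sum of its transcripts in each library, so the 9 genes are 9 of the 55358 genes so formed. MEFs are connective-tissue cells grown from embryos. There were 4 groups of 2 libraries each: Arid5a-/- cells (KO) given 100 ng/ml interleukin 6 (IL-6) for 24 h, KO cells kept without IL-6, wild-type (WT) cells given the same dose for the same time, and WT cells without IL-6. Arid5a encodes an RNA-binding protein that stabilises selected inflammatory transcripts, and the series was built to look for long non-coding RNAs of the IL-6 and Arid5a axis in relation to breast cancer. How the allele was made, the cells' strain and the embryos' age are not given in the sources used here. Whether the 2 libraries of a group stem from separate cultures or embryos is not stated, so the p-values speak of library-to-library spread, possibly technical, and not of spread between cultures.

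EGF family ligands are made as membrane-anchored precursors. Proteases cut them free, or they act on the neighbouring cell while still anchored. Epiregulin (Ereg), amphiregulin (Areg), heparin-binding EGF-like growth factor (Hbegf), transforming growth factor alpha (Tgfa) and betacellulin (Btc) bind the EGF receptor (Egfr), and some of them also bind Erbb4. Neuregulin 1 (Nrg1) binds Erbb3 and Erbb4. Bound receptors pair with one another, and Erbb2, which has no known ligand of its own, is the favoured partner. Erbb3 has little kinase activity and signals through its partners. The pathway is known in fibroblasts for driving division and migration through the Ras, Erk and PI3K routes.

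Levels are in FPKM, fragments per kilobase of transcript, scaled to sequencing depth, which corrects for length and so lets genes be compared. A log2 difference is the difference between the group means of log2(FPKM + 1), given ± its standard error, and it understates the fold of a gene near or under 1 FPKM. A gene was called at an adjusted p below 0.05 in limma, adjusted over the 13693 genes that reached 1 FPKM in at least 2 libraries. Library depth, read from the steps between low values, was 37.2 to 46.9 M fragments (M, 1e6). All 9 genes entered the test, but Areg reached 1 FPKM only in the 2 WT libraries with IL-6, Ereg only in the 4 WT libraries and Tgfa only in the 4 KO libraries, so these 3 genes were testable only through the groups in which they were high. The comparisons share libraries (both the IL-6 comparison in WT and the untreated genotype comparison use the untreated WT libraries, for example), so their values stand side by side and were not correlated.

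The genotypes differed in far more than Arid5a. Arid5a itself stood at 8.47 and 8.15 FPKM in KO libraries with IL-6 and at 5.51 and 6.85 in untreated KO libraries, against 30.9 and 31.0 in WT libraries with IL-6 and 18.7 and 15.9 in untreated WT libraries, so KO libraries held lower levels but not 0. Xist, transcribed from the inactive X of female cells, was at 55.2 to 61.0 FPKM in the KO libraries and at most 0.00562 in the WT libraries, and the 4 Y-linked genes examined showed the opposite, so the embryos differed in sex. All 7 mesothelial markers examined (Wt1, Msln, Upk3b, Upk1b, Lrrn4, Krt7 and Muc16) were higher in KO, with summed levels of 1380 to 1431 FPKM in KO libraries and 34.3 to 46.8 FPKM in WT libraries, of which Msln made up most, while Wt1, Lrrn4 and Muc16 were at or near 0 in WT. Of 10 epithelial markers, 6 were testable. Of these, 5 were higher in KO and 1, Cldn7, was lower (0.197 to 0.316 FPKM in KO libraries, 1.77 to 2.63 FPKM in WT libraries). The 10 summed to 331 to 347 FPKM in KO libraries, most of it Krt19 and Krt14. In WT libraries they summed to 7.79 to 10.3 FPKM, and Krt14 was at 0. The untested Epcam, Krt5, Cldn4 and Esrp1 stayed under 1 FPKM in every library of both genotypes, and Krt5 was at 0 in all of them. Endothelial markers summed to 10.8 to 12.0 FPKM in KO and 0.0764 to 0.188 FPKM in WT, but the KO sum was nearly all Tek and Kdr. The other endothelial markers examined, Pecam1, Cdh5, Emcn and Cldn5, were at most 0.105 FPKM in any library of either genotype. Of 10 fibroblast markers, 8 reached 1 FPKM in each KO library and 10 in each WT library, with sums of 4116 to 4351 FPKM in KO and 3462 to 3942 FPKM in WT; without IL-6, 3 were higher in KO, among them the collagen gene Col1a1 (1034 FPKM in KO, 561 in WT), and 6 lower, among them Pdgfra (7.62 to 8.85 FPKM in KO and 33.1 to 52.4 FPKM in WT over all libraries). Macrophage and neural crest marker sums stayed under 6 FPKM in every library. Any genotype difference below cannot be told apart from these other differences between the 2 cell populations, and in bulk RNA a smaller share of cells of one type and less RNA per cell cannot be told apart either.

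**Figure D1:**
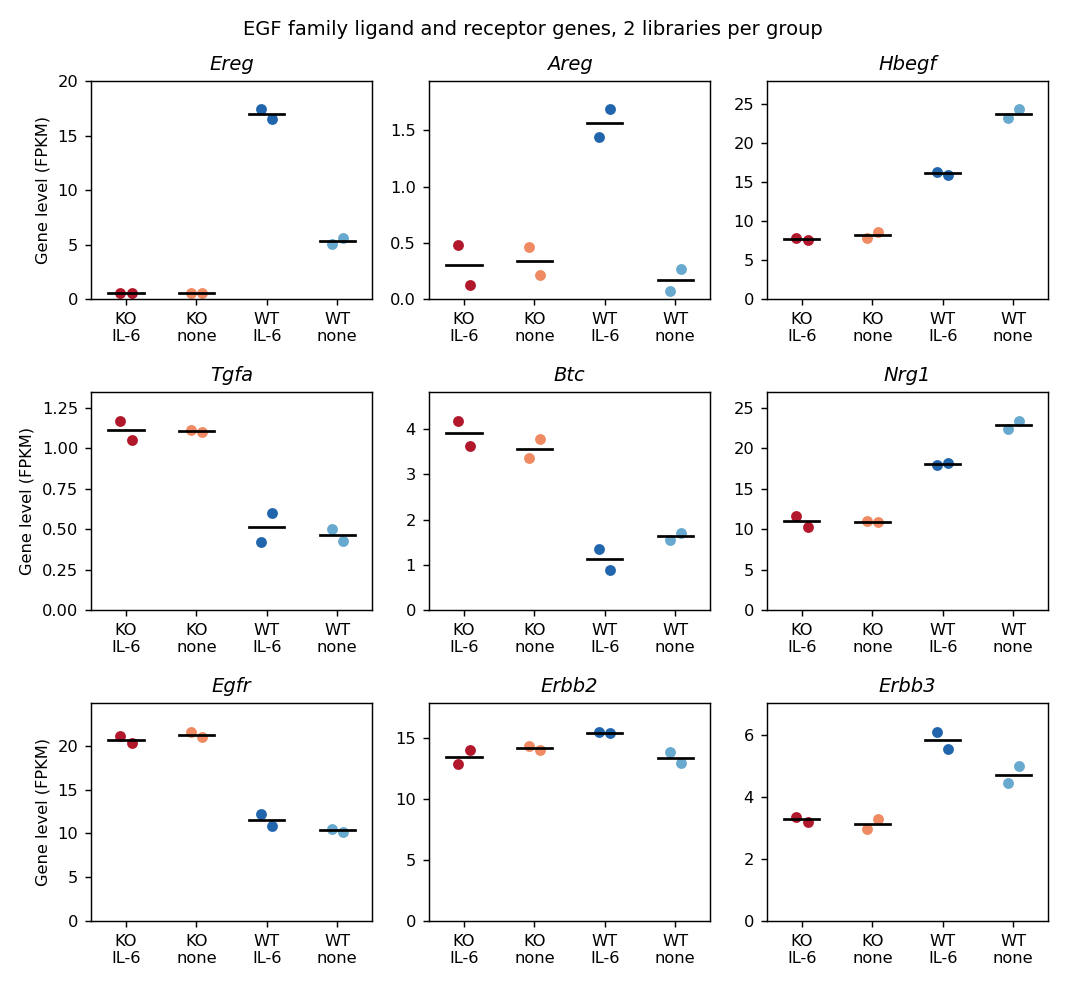
Levels of the 9 genes in FPKM (y axis, from 0, scaled per panel) in each group (x axis, KO left of WT and IL-6 left of none). Points are single libraries and bars are means of 2. In Ereg all 4 KO libraries lie between 0.543 and 0.572 FPKM, and the 2 WT libraries with IL-6, at 17.4 and 16.5 FPKM, stand above the untreated WT libraries, at 5.04 and 5.61 FPKM.

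After IL-6, 0 of the 9 genes were called in KO cells and 4 of 9 in WT cells: Ereg and Areg rose and Hbegf and Nrg1 fell. Over all genes tested, 3 were called in KO (0.0219%; 1025 had an unadjusted p below 0.05) and 2150 in WT (15.7%), with 1136 higher (8.3%) and 1014 lower (7.41%). The median log2 difference of the 9 genes was -0.02 in KO and 0.14 in WT, against 0.00 in KO and 0.00 in WT over all genes tested. When every library was scaled to the same total FPKM, the WT split became 813 higher and 1527 lower, and the 4 family genes called stayed the same in number. The IL-6 change in KO minus that in WT was called for 3 of the 9 genes, negative for Ereg and Areg and positive for Hbegf. That difference was called for 6.06% of all genes, 2.54% with a positive and 3.52% with a negative sign. With equal totals, that split was 477 positive and 389 negative, against 348 and 482.

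Ereg, the epiregulin gene, carried the widest range. It stood at 0.543 and 0.549 FPKM in KO libraries with IL-6 and at 0.557 and 0.572 FPKM in untreated KO libraries. In WT it stood at 17.4 and 16.5 FPKM with IL-6 and at 5.04 and 5.61 FPKM without. The KO libraries were the lowest of the 8, the 2 treated WT libraries were the highest, and no 2 groups overlapped. In KO the IL-6 log2 difference was -0.02 ± 0.08 (adjusted p = 0.987). IL-6 raised Ereg in WT 3.18-fold (1.51 ± 0.08, adjusted p = 4.18e-05), and the 2 IL-6 changes differed by -1.52 ± 0.11 (adjusted p = 6.82e-04). Under all 17 alternatives run for it, the Ereg difference between the changes stayed called, with values from -1.69 to -1.09. Relative to WT, the KO level of Ereg was 10.6% in untreated cells (-2.01 ± 0.08, adjusted p = 2.58e-07) and 3.22% in treated cells (-3.54 ± 0.08, adjusted p = 1.34e-08). Ereg has 1 transcript in the files (chr5:91074622-91093646, plus strand, GRCm38), and the KO values rest on about 81.8 to 102 fragments a library, against 808 to 2702 in WT.

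Areg, the amphiregulin gene, lies just downstream of Ereg on the same strand (chr5:91139599-91148432) and was low everywhere. It stood at 0.480 and 0.123 FPKM in KO with IL-6 and 0.466 and 0.211 FPKM in untreated KO. In WT it stood at 1.44 and 1.69 FPKM with IL-6 and 0.0714 and 0.266 FPKM without. The treated WT libraries lay above all the others, and the 6 others overlapped. Areg reached 1 FPKM only in those 2 treated WT libraries, so it was testable only through the group in which it was high. In fragments, the KO libraries held about 6.0 to 19.9, the treated WT libraries about 59.2 and 70.0 and the untreated WT libraries about 3 and 12. In KO the IL-6 difference was -0.05 ± 0.17 (adjusted p = 0.981). In WT the ratio of fragments, corrected for depth, was 9.11 (exact Clopper-Pearson 95% interval 5.32 to 16.7, counting error only), and the log2 difference was 1.14 ± 0.17 (adjusted p = 0.00498). The interval leaves out the spread between libraries, such as the 3 and 12 fragments of untreated WT. With IL-6, KO held 19.3% of the WT level of Areg (-0.99 ± 0.17, adjusted p = 0.00123), and without IL-6 the difference was 0.19 ± 0.17 (adjusted p = 0.338). The difference between the IL-6 changes was -1.18 ± 0.24 (adjusted p = 0.0344); for Areg this call was lost under 8 of 14 alternatives, with adjusted p from 0.0213 to 0.0994. In the fit over transcripts, where the single Areg transcript has the same values, the rise in WT had an adjusted p of 0.0532 and the difference between the changes 0.184.

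Promoter windows from the RefSeq table (GRCm38.p6) were searched for 5 of the 9 genes: Areg, Btc, Tgfa, Egfr and Erbb2. No window of Ereg, Hbegf, Nrg1 or Erbb3 was searched, so their motif content is not given here. Each window searched reached from 250 bases before the start site to 50 after it. The windows were searched on both strands for a STAT motif (TTCNNNGAA), an AP-1 motif (TGANTCA), a cAMP response element (TGACGTCA) and a TATA box (TATAAA). The Areg window held a TGACGTCA that begins 61 bases before the start site and a TATAAA that begins 31 bases before it, and none of the letters of the other 2 motifs. The windows of Btc, Tgfa, Egfr and Erbb2 held none of the 4. Over all 32851 windows of the table, 8.3% held the STAT letters, 7.81% the AP-1 letters, 1.79% TGACGTCA and 13.6% TATAAA. A match is a run of letters, not a shown binding site. The last 100 bases before the start site are shown for Areg (chr5:91139499-91139598, plus strand) and for its neighbour Btc (chr5:91402995-91403094, minus strand), since these genes lie in the same stretch and their levels ran in opposite directions between the genotypes with IL-6; capitals mark the 2 motifs.
Areg: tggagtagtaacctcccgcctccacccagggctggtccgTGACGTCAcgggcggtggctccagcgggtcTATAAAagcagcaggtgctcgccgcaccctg
Btc: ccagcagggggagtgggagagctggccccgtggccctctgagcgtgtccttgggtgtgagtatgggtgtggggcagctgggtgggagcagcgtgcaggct

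Hbegf encodes a ligand that also binds heparan sulphate on the cell surface. It was at 7.79 and 7.53 FPKM in KO with IL-6 and 7.83 and 8.60 FPKM in untreated KO, against 16.3 and 15.9 FPKM in WT with IL-6 and 23.2 and 24.3 FPKM in untreated WT. Here the order in WT was the reverse of Ereg's: both treated libraries lay under both untreated ones, and every KO library lay under every WT library. The IL-6 difference in KO was -0.09 ± 0.06 (adjusted p = 0.795), and in WT IL-6 lowered Hbegf to 67.8% of the untreated level (-0.53 ± 0.06, adjusted p = 0.00120). KO cells held 34.5% of the WT level when untreated (-1.43 ± 0.06, adjusted p = 4.13e-07) and 47.5% when treated (-0.98 ± 0.06, adjusted p = 3.05e-06). The difference between the IL-6 changes was 0.44 ± 0.08 (adjusted p = 0.0244). For Hbegf that call was lost when any of 7 of the 8 libraries was left out (every one except the second untreated KO library) and without the filter on low genes, with adjusted p from 0.0130 to 0.0884 over all alternatives.

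Nrg1, the neuregulin 1 gene, is the only one of the 6 ligand genes whose product acts through Erbb3 and not Egfr. It was at 11.6 and 10.3 FPKM in KO with IL-6 and 10.96 and 10.92 FPKM in untreated KO, against 17.9 and 18.2 FPKM in WT with IL-6 and 22.4 and 23.4 FPKM in untreated WT. The KO groups overlapped each other, while the WT groups did not. The IL-6 difference in KO was 0.00 ± 0.06 (adjusted p = 1.0), and in WT IL-6 lowered Nrg1 to 78.8% of the untreated level (-0.33 ± 0.06, adjusted p = 0.0132). This WT call for Nrg1 was lost without the second untreated WT library (adjusted p = 0.0740), the first treated one (0.0694) or the second treated one (0.0598). The difference between the IL-6 changes did not pass (0.33 ± 0.09, adjusted p = 0.0791). The KO level of Nrg1 was 47.8% of that in WT for untreated cells (-1.0 ± 0.06, adjusted p = 4.19e-06) and 60.8% for treated cells (-0.67 ± 0.06, adjusted p = 3.74e-05).

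Btc and Tgfa, the betacellulin and transforming growth factor alpha genes, showed the other genotype direction. Btc was at 4.19 and 3.63 FPKM in KO with IL-6 and 3.36 and 3.78 FPKM in untreated KO, against 1.36 and 0.898 FPKM in WT with IL-6 and 1.54 and 1.72 FPKM in untreated WT. Every KO library lay above every WT library, 2.19-fold when untreated (0.80 ± 0.12, adjusted p = 6.93e-04) and 3.47-fold when treated (1.21 ± 0.12, adjusted p = 6.30e-05). Tgfa was at 1.17 and 1.05 FPKM in KO with IL-6 and 1.113 and 1.101 FPKM in untreated KO, against 0.420 and 0.601 FPKM in WT with IL-6 and 0.499 and 0.429 FPKM in untreated WT. Again the genotypes did not overlap, and the IL-6 groups of each genotype did. The Tgfa difference was 0.53 ± 0.10 in untreated cells (adjusted p = 0.00204) and 0.48 ± 0.10 in treated cells (adjusted p = 0.00302). IL-6 gave no call for either gene: for Btc 0.10 ± 0.12 in KO (adjusted p = 0.908) and -0.31 ± 0.12 in WT (adjusted p = 0.140), where both treated libraries lay under both untreated ones, and for Tgfa 0.00 ± 0.10 in KO (adjusted p = 1.0) and 0.04 ± 0.10 in WT (adjusted p = 0.826).

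**Figure D2:**
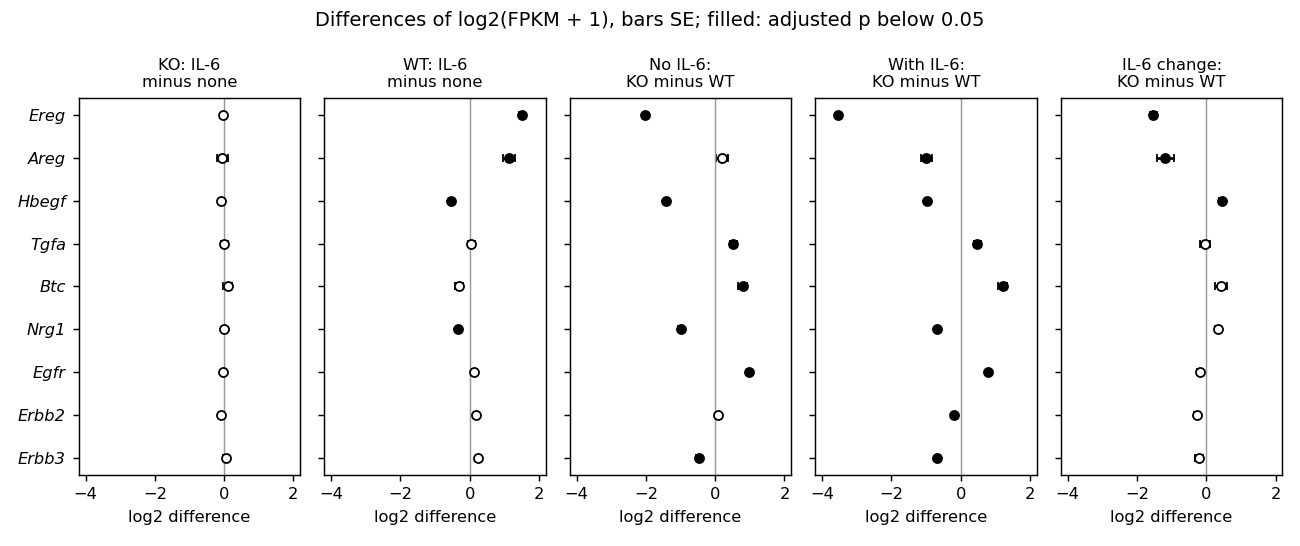
Log2 differences of FPKM + 1 (x axis) for each gene (y axis) in the 5 comparisons, with standard errors as bars. Filled points have an adjusted p below 0.05; the KO panel for IL-6 has none filled, the WT panel has 4, and the panel for KO against WT with IL-6 has all 9.

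Among the receptors, Egfr stood at 21.1 and 20.3 FPKM in KO with IL-6 and 21.6 and 20.9 FPKM in untreated KO, against 12.2 and 10.8 FPKM in WT with IL-6 and 10.5 and 10.2 FPKM in untreated WT. The genotypes were far apart, with KO 2.05-fold higher when untreated (0.97 ± 0.06, adjusted p = 5.46e-06) and 1.80-fold higher when treated (0.80 ± 0.06, adjusted p = 1.58e-05). The IL-6 differences of Egfr were -0.04 ± 0.06 in KO (adjusted p = 0.937) and 0.14 ± 0.06 in WT (adjusted p = 0.206). Erbb3, the kinase-impaired receptor for neuregulins, ran the other way, at 3.36 and 3.22 FPKM in KO with IL-6 and 2.98 and 3.30 FPKM in untreated KO, against 6.11 and 5.56 FPKM in WT with IL-6 and 4.45 and 5.01 FPKM in untreated WT. Every KO library lay under every WT library. The KO level of Erbb3 was 66.3% of that in WT for untreated cells (-0.47 ± 0.08, adjusted p = 0.00145) and 56.4% for treated cells (-0.67 ± 0.08, adjusted p = 1.95e-04). The IL-6 difference of Erbb3 in KO was 0.05 ± 0.08 (adjusted p = 0.935), and in WT, where both treated libraries exceeded both untreated ones, 0.26 ± 0.08 (adjusted p = 0.0831).

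Erbb2, the shared partner receptor, varied least. It was at 12.8 and 14.0 FPKM in KO with IL-6 and 14.4 and 14.0 FPKM in untreated KO, against 15.5 and 15.4 FPKM in WT with IL-6 and 13.9 and 12.9 FPKM in untreated WT. The lowest and the highest library differ by less than the genotype gap of Egfr. The IL-6 differences were -0.08 ± 0.06 in KO (adjusted p = 0.830) and 0.19 ± 0.06 in WT (adjusted p = 0.0671), and the untreated genotype difference was 0.08 ± 0.06 (adjusted p = 0.259). With IL-6, KO was lower than WT (-0.19 ± 0.06, adjusted p = 0.0196), a call of Erbb2 that was lost with equal total FPKM (-0.10, adjusted p = 0.130), without either treated WT library (0.0737 and 0.0620) and without the first treated KO library (0.121).

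Between the genotypes, then, 7 of the 9 genes were called without IL-6, 3 higher in KO (Tgfa, Btc and Egfr) and 4 lower (Ereg, Hbegf, Nrg1 and Erbb3). With IL-6 all 9 were called, the same 3 higher and Areg and Erbb2 added to the 4 lower. These counts stand beside 71.0% of all genes called without IL-6 (36.4% higher and 34.5% lower in KO) and 71.7% with it (36.9% higher and 34.8% lower), so the count without IL-6 lies near that background, and Ereg, Areg and Tgfa could enter only through groups in which they were high. The median log2 difference of the 9 genes was 0.08 without and -0.67 with IL-6, against 0.01 and 0.01 over all genes tested. The median absolute difference was 0.80 in both, against 0.39 and 0.40 over all genes.

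The summed ligand level was lower in KO, and its make-up shifted with IL-6 in WT. The 6 ligand genes summed to 24.5 ± 1.85 FPKM in KO with IL-6 and 24.7 ± 0.625 FPKM in untreated KO, against 54.3 ± 0.764 FPKM in WT with IL-6 and 54.3 ± 2.12 FPKM in untreated WT (SD, n = 2 each). In KO, Ereg held 2.24 ± 0.185% of the sum with IL-6 and 2.28 ± 0.0132% without, and Btc held 15.9 ± 0.393% with and 14.4 ± 0.822% without. Nrg1 held 44.8 ± 0.476% in KO with IL-6 and 44.2 ± 1.24% without, and Hbegf 31.3 ± 1.63% with and 33.2 ± 1.34% without. In WT, Ereg held 31.2 ± 0.755% of the sum with IL-6 and 9.81 ± 0.366% without, and Btc held 2.07 ± 0.572% with and 3.0 ± 0.108% without. Hbegf held 29.7 ± 0.0752% in WT with IL-6 and 43.8 ± 0.300% without, and Nrg1 33.2 ± 0.797% with and 42.2 ± 0.293% without. Beside the rise of Ereg and the falls of Hbegf and Nrg1 in WT, the ligand sums of the 2 WT groups differed by less than their spread between libraries. The 3 receptors summed to 37.4 ± 0.133 FPKM in KO with IL-6 and 38.6 ± 0.440 FPKM in untreated KO, against 32.8 ± 1.46 FPKM in WT with IL-6 and 28.5 ± 0.507 FPKM in untreated WT. Egfr made up 55.3 ± 1.78% and 55.1 ± 0.521% of that in KO with and without IL-6, and 35.0 ± 1.43% and 36.4 ± 0.233% in WT with and without it. Over all transcripts, coding or not, Erbb2 led the receptors in WT, at 47.2 ± 1.83% with IL-6 and 47.0 ± 1.44% without. A non-coding transcript held 40.2% of the Erbb2 mean in WT with IL-6 and 41.4% without. The only coding transcript of Erbb2 averaged 8.78 FPKM in WT with IL-6 and 7.64 FPKM without. The full-length coding transcript of Egfr averaged 6.95 and 6.28 FPKM there, and a shorter coding one 2.99 and 2.79 FPKM. Which receptor led among coding transcripts thus depends on whether the shorter one is counted.

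**Figure D3:**
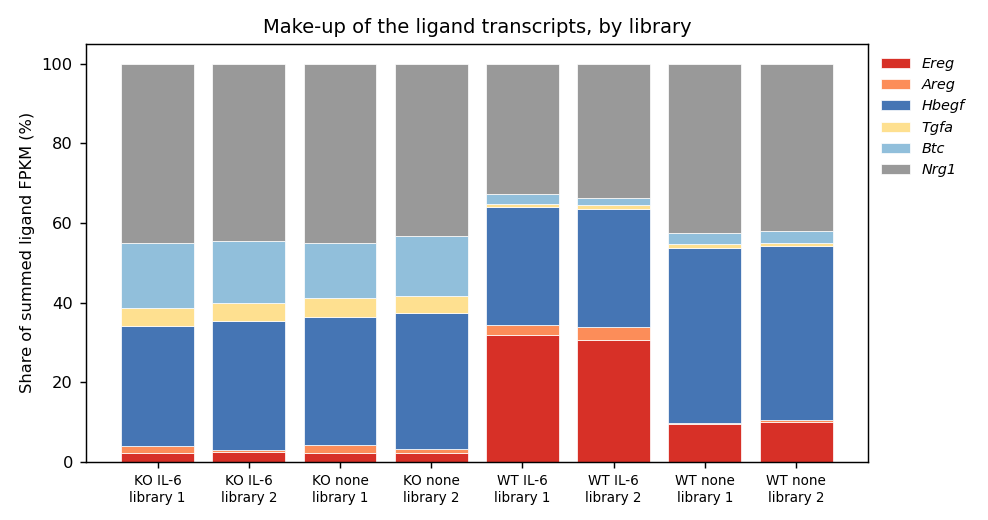
Share of each ligand gene in the summed FPKM of the 6 ligand genes (y axis, percent) in each of the 8 libraries (x axis). Ereg takes 30.7 to 31.7% in treated WT and 9.55 to 10.1% in untreated WT, and Btc takes 13.8 to 16.2% in KO and 1.67 to 3.08% in WT.

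Genes were also ranked by level, as sums over all transcripts, coding or not. The order in both KO groups was Egfr, Erbb2, Nrg1, Hbegf, Btc, Erbb3, Tgfa, Ereg and Areg, and no neighbours in it overlapped between libraries. In WT with IL-6 the order was Nrg1, Ereg, Hbegf, Erbb2, Egfr, Erbb3, Areg, Btc and Tgfa, again with no neighbours overlapping, although Nrg1 to Erbb2 lay within 18.0 and 15.4 FPKM. In untreated WT it was Hbegf, Nrg1, Erbb2, Egfr, Ereg, Erbb3, Btc, Tgfa and Areg, where Hbegf and Nrg1 overlapped and all other neighbours did not. Ereg thus ranked 8 of 9 in both KO groups, 2 of 9 in treated WT and 5 of 9 in untreated WT.

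The files list several transcripts for some of these genes, and 19 member transcripts reached the same filter among 33179 transcripts tested. In WT, IL-6 gave 1 higher (Ereg-201) and 1 lower call (Hbegf-201) among them, beside 2.86% of all transcripts called. Between genotypes 15 of 19 were called without IL-6 (6 higher and 9 lower in KO, beside 41.1% of all transcripts) and 14 of 19 with it (5 higher and 9 lower, beside 43.1%). Some of the 19, such as the Ereg and Tgfa transcripts, reached 1 FPKM only in WT or only in KO libraries. These were testable only through the genotype in which they were high. The 19 also include 8 transcripts of Nrg1 and 3 of Egfr, so the genotype counts do not measure an excess over all transcripts. How fragments are shared among overlapping transcripts of a gene is an estimate of the authors' program. Whether the counting used strand is not stated, and Gm19610 (Ereg), Egfros (Egfr), Gm26578 (Nrg1) and Mien1 (Erbb2) overlap a family gene on the opposite strand, so small contributions from them cannot be told apart.

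For Egfr, the full-length Egfr-201 and the shorter Egfr-202 differ in what they encode, and both were higher in KO. Their coding sequences (GENCODE M21, chromosome 11) share their first 1926 bases. After that Egfr-202 has 42 bases of its own and stops, at 1968 bases in all, where Egfr-201 runs on to 3633 bases. The stretch from base 1897 to base 1968 of each coding sequence is shown because it holds the point where they part, with the unshared bases in capitals.
Egfr-201: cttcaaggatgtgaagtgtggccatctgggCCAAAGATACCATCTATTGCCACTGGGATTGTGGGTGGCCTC
Egfr-202: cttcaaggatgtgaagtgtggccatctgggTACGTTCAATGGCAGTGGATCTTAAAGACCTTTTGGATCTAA

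The receptor's membrane-spanning stretch and kinase domain are encoded after that point, so the reading frame of Egfr-202 holds neither. Egfr-201 was at 10.9 and 11.1 FPKM in KO with IL-6 and 10.7 and 10.9 FPKM in untreated KO, against 6.99 and 6.91 FPKM in WT with IL-6 and 6.13 and 6.43 FPKM in untreated WT. Egfr-202 was at 6.31 and 6.51 FPKM in KO with IL-6 and 7.96 and 7.24 FPKM in untreated KO, against 3.47 and 2.51 FPKM in WT with IL-6 and 2.59 and 2.99 FPKM in untreated WT. For each transcript every KO library lay above every WT library. Without IL-6 the genotype difference was 0.70 ± 0.06 for Egfr-201 (adjusted p = 1.98e-04) and 1.18 ± 0.13 for Egfr-202 (adjusted p = 9.17e-04). With IL-6 it was 0.59 ± 0.06 for Egfr-201 (adjusted p = 3.87e-04) and 0.90 ± 0.13 for Egfr-202 (adjusted p = 0.00273). The ratio of Egfr-202 to Egfr-201 was 0.580 and 0.588 in KO with IL-6 and 0.743 and 0.662 in untreated KO, against 0.496 and 0.363 in WT with IL-6 and 0.423 and 0.464 in untreated WT. The genotypes did not overlap in that ratio, for which no test was run.

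**Figure D4:**
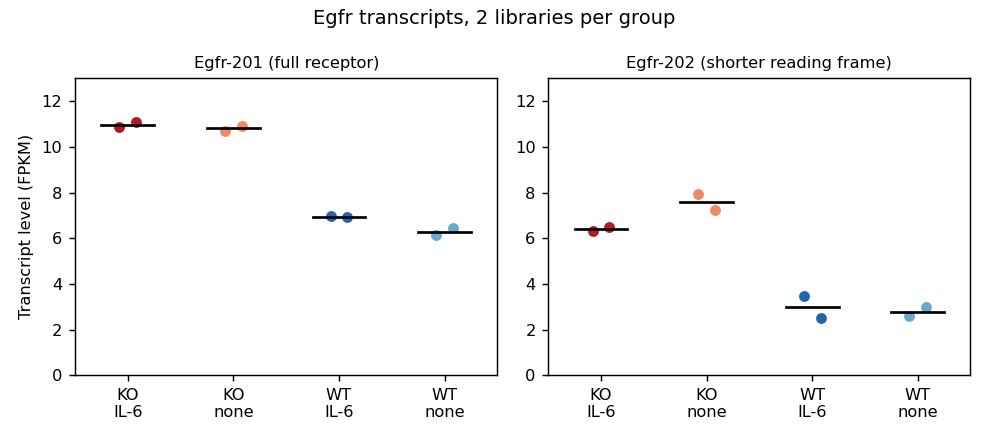
Levels of Egfr-201 (left) and Egfr-202 (right) in FPKM (y axis, from 0) by group (x axis). Points are single libraries and bars are means of 2; in both panels the 4 KO libraries lie above the 4 WT libraries, at 10.7 to 11.1 against 6.13 to 6.99 FPKM for Egfr-201.

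Nrg1, which makes many forms of its ligand from several starts, had 33 transcripts in the files, 19 of them above 0 in some library and 8 tested. Nrg1-203, the highest of them in untreated WT, was at 2.31 ± 0.00282 FPKM in KO with IL-6 and 2.59 ± 0.138 FPKM in untreated KO, against 4.33 ± 0.312 FPKM in WT with IL-6 and 5.67 ± 0.716 FPKM in untreated WT (SD, n = 2 each). Nrg1-208 differed more, at 1.04 ± 0.415 FPKM in KO with IL-6 and 0.748 ± 0.0479 FPKM in untreated KO, against 3.47 ± 0.619 FPKM in WT with IL-6 and 4.82 ± 1.33 FPKM in untreated WT. Nrg1-220 was listed at 0 in all 4 KO libraries, against 1.62 and 1.02 FPKM in WT with IL-6 and 2.52 and 2.50 FPKM in untreated WT, and Nrg1-224 was at 0.0288 to 0.0963 FPKM in KO and 1.16 to 1.80 FPKM in WT. These last 2 names are not in GENCODE M21, so what they encode is not given here. In untreated cells Nrg1-203 (-0.89 ± 0.11, adjusted p = 0.00122), Nrg1-208 (-1.72 ± 0.22, adjusted p = 0.00157), Nrg1-220 and Nrg1-224 were all lower in KO. So were Nrg1-210 (-0.95 ± 0.26, adjusted p = 0.0305) and Nrg1-214 (-0.48 ± 0.12, adjusted p = 0.0241). Nrg1-223 was higher (1.02 ± 0.30, adjusted p = 0.0398) and Nrg1-206 gave no call (0.53 ± 0.41, adjusted p = 0.356). Nrg1-210, Nrg1-220 and Nrg1-224 reached 1 FPKM only in WT libraries and Nrg1-223 only in KO libraries, so each was testable only through the genotype in which it was high. No Nrg1 transcript was called after IL-6 in WT; Nrg1-220 had the smallest p among them (-0.61 ± 0.17, adjusted p = 0.144).

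Of the other 6 genes of the family, only Nrg2 reached the filter, and it did so only through the KO libraries. Nrg2 was at 2.23 and 1.11 FPKM in KO with IL-6 and 1.631 and 1.201 FPKM in untreated KO, against 0.0354 and 0.198 FPKM in WT with IL-6 and 0.394 and 0.375 FPKM in untreated WT. Its genotype difference was 0.80 ± 0.20 in untreated cells (adjusted p = 0.00865) and 1.23 ± 0.20 in treated cells (adjusted p = 9.33e-04). Egf, the founding ligand, lay between 0.347 and 0.940 FPKM and Nrg4 between 0.125 and 0.391 FPKM over the 8 libraries. Epgn, the epigen gene next to Ereg, was at most 0.142 FPKM, Nrg3 was listed at 0 throughout, and Erbb4, the remaining receptor, was at most 0.134 FPKM. Erbb4 was listed at 0 in both untreated WT libraries.

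Epgn, Ereg, Areg and Btc lie in a row on chromosome 5, with 39.4 kb between Epgn and Ereg, 46.0 kb between Ereg and Areg and 208.8 kb between Areg and Btc. The protein-coding gene next to Epgn is Mthfd2l, a mitochondrial folate enzyme, and the one next to Btc is Parm1. Beyond Mthfd2l lie the neutrophil chemokine genes Cxcl2 and Cxcl1, named here after their values were seen. Mthfd2l was at 9.55 ± 0.801 FPKM in KO with IL-6 and 8.77 ± 0.423 FPKM in untreated KO, against 30.1 ± 2.10 FPKM in WT with IL-6 and 26.5 ± 2.95 FPKM in untreated WT. It was lower in KO (-1.49 ± 0.09 without IL-6, adjusted p = 4.13e-06), like Ereg, but its IL-6 difference in WT was 0.18 ± 0.09 (adjusted p = 0.246). Parm1 was at 3.13 ± 0.342 FPKM in KO with IL-6 and 3.11 ± 0.0621 FPKM in untreated KO, against 0.204 ± 0.00628 FPKM in WT with IL-6 and 0.121 ± 0.0494 FPKM in untreated WT. It was higher in KO (1.88 ± 0.09 without IL-6, adjusted p = 1.25e-06), like Btc. Cxcl2 was at 0.0643 ± 0.0586 FPKM in KO with IL-6 and 0.0261 ± 0.0369 FPKM in untreated KO, against 42.3 ± 0.566 FPKM in WT with IL-6 and 20.4 ± 0.317 FPKM in untreated WT. Cxcl1 was at 0.202 ± 0.0906 FPKM in KO with IL-6 and 0.0814 ± 0.0702 FPKM in untreated KO, against 177 ± 1.46 FPKM in WT with IL-6 and 116 ± 0.312 FPKM in untreated WT. Both chemokine genes were near 0 in KO and rose with IL-6 in WT, Cxcl2 by 1.01 ± 0.07 (adjusted p = 1.25e-04) and Cxcl1 by 0.61 ± 0.07 (adjusted p = 0.00151). The difference between their IL-6 changes was -0.96 ± 0.10 for Cxcl2 (adjusted p = 0.00237) and -0.46 ± 0.10 for Cxcl1 (adjusted p = 0.0410). Of these 8 genes, Cxcl1, Cxcl2, Ereg and Areg were called after IL-6 in WT, Mthfd2l, Btc and Parm1 were not, and Epgn was too low to test.

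**Figure D5:**
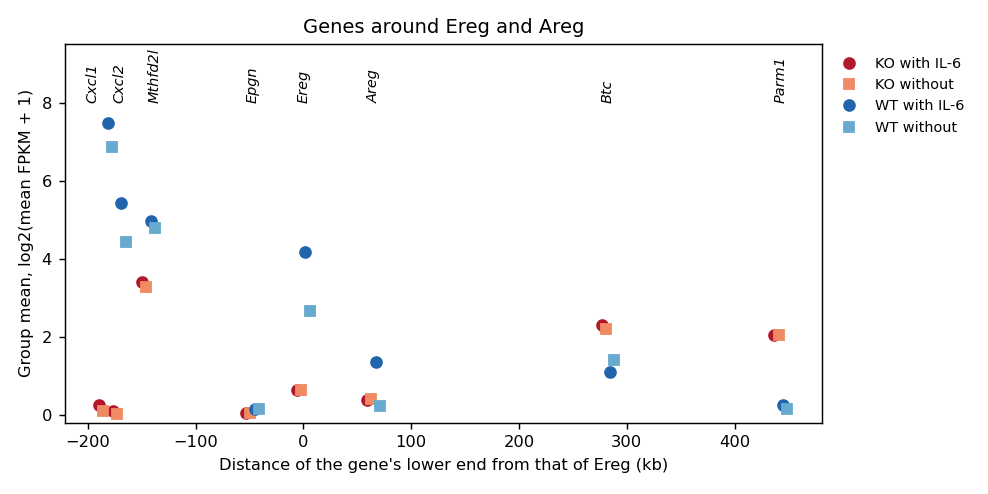
Group means on the log2(mean FPKM + 1) scale (y axis) for 8 protein-coding genes of the stretch around Ereg, placed by the distance of each gene's lower end from that of Ereg (x axis, kb, points of a gene spread sideways for legibility). Circles are cells with IL-6 and squares cells without; Cxcl1, Cxcl2, Mthfd2l and Ereg are higher in WT, Btc and Parm1 are higher in KO, and Ereg, Areg, Cxcl2 and Cxcl1 are higher with IL-6 in WT.

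The genes around the family were read from 5 lists: release of ligands from the membrane, adaptors and kinases, inhibitors, receptor trafficking, and co-receptors. None of their members was called after IL-6 in KO. In WT, where 8.3% of all genes tested rose and 7.41% fell, 2 of 9 release genes rose and none fell: the metalloprotease Adam9 (113 ± 0.193 FPKM with IL-6 and 71.6 ± 1.55 FPKM without, SD, n = 2 each; 0.65 ± 0.04, adjusted p = 7.44e-05) and Frmd8, which stabilises the sheddase complex (0.17 ± 0.05, adjusted p = 0.0480). Adam9 differed between the IL-6 changes (-0.60 ± 0.05, adjusted p = 0.00166). Of 16 adaptors and kinases 1 rose, Shc1, which links ErbB receptors to Ras (0.22 ± 0.05, adjusted p = 0.0265). None of the 13 trafficking genes was called in WT after IL-6. The medians of these 3 lists were 0.06, 0.00 and -0.01, beside 0.00 over all genes tested.

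Of 15 inhibitors, 6 rose and 1 fell after IL-6 in WT (median 0.12), beside 8.3% and 7.41% of all genes tested. Errfi1 (also called Mig6), which binds and blocks the EGF receptor kinase, was at 7.17 ± 0.569 FPKM in KO with IL-6 and 6.49 ± 0.660 FPKM in untreated KO, against 69.9 ± 3.15 FPKM in WT with IL-6 and 38.3 ± 1.77 FPKM in untreated WT. It rose with IL-6 in WT (0.85 ± 0.08, adjusted p = 5.88e-04), and its IL-6 changes differed (-0.72 ± 0.11, adjusted p = 0.0126). Dusp6, an Erk phosphatase, was at 28.7 ± 0.388 FPKM in KO with IL-6 and 29.2 ± 1.63 FPKM in untreated KO, against 9.71 ± 0.612 FPKM in WT with IL-6 and 5.20 ± 0.636 FPKM in untreated WT. It too rose in WT (0.79 ± 0.08, adjusted p = 9.51e-04), with a difference between the changes of -0.82 ± 0.12 (adjusted p = 0.00881), but its genotype order was the opposite of that of Errfi1. The phosphatases Ptpn1 (-0.38 ± 0.08, adjusted p = 0.0343) and Ptpn2 (-0.35 ± 0.07, adjusted p = 0.0321) completed the 4 of 15 inhibitors whose IL-6 changes differed, all with the smaller change in KO, beside 6.06% of all genes tested.

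Of 6 co-receptors, 2 rose and 3 fell after IL-6 in WT (median -0.11), beside the same 8.3% and 7.41%. Muc1, a membrane mucin that associates with ErbB receptors, was at 1.57 ± 0.182 FPKM in KO with IL-6 and 0.903 ± 0.00573 FPKM in untreated KO, against 15.3 ± 0.152 FPKM in WT with IL-6 and 5.38 ± 0.356 FPKM in untreated WT. It rose in WT (1.35 ± 0.08, adjusted p = 6.73e-05), and the difference between the changes was -0.92 ± 0.11 (adjusted p = 0.00459). The neuropilin Nrp2 fell in WT (-0.37 ± 0.04, adjusted p = 9.84e-04), as did the tetraspanin Cd81 (-0.30 ± 0.04, adjusted p = 0.00265). The differences between the IL-6 changes were 0.32 ± 0.05 for Nrp2 (adjusted p = 0.0167) and 0.25 ± 0.05 for Cd81 (adjusted p = 0.0459).

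Between the genotypes without IL-6, where 36.4% of all genes tested were higher and 34.5% lower in KO, 4 of 9 release genes were higher and 3 lower, 6 of 16 adaptors higher and 5 lower, 7 of 15 inhibitors higher and 6 lower, 6 of 13 trafficking genes higher and 6 lower, and 1 of 6 co-receptors higher and 4 lower. With IL-6, beside 36.9% higher and 34.8% lower, the counts higher and lower were 3 and 3 for release genes, 7 and 6 for adaptors, 7 and 7 for inhibitors, 5 and 6 for trafficking genes, and 1 and 5 for co-receptors. Adam17, the main sheddase of several of these ligands and named here after its values were seen, was lower in KO (-1.03 ± 0.05 without IL-6, adjusted p = 6.34e-07; -1.16 ± 0.05 with IL-6, adjusted p = 3.13e-07). The proteases Adam10 (1.45 ± 0.04 without IL-6, adjusted p = 3.17e-08) and Adam12 (2.32 ± 0.08, adjusted p = 1.45e-07) were higher in KO, as were the adaptor Gab1 (1.19 ± 0.04, adjusted p = 2.48e-07) and the exchange factor Vav2 (1.195 ± 0.06, adjusted p = 9.99e-07). Lower in KO were Errfi1 (-2.39 ± 0.08, adjusted p = 1.36e-07), Lrig1, a negative regulator of ErbB receptors (-1.27 ± 0.06, adjusted p = 6.18e-07), and Cd44, a heparan sulphate bearing partner of Hbegf (-2.31 ± 0.05, adjusted p = 9.67e-09). In the trafficking list Rab7, of late endosomes, was higher (0.59 ± 0.04, adjusted p = 6.14e-06) and Ankrd13a, which binds ubiquitinated EGF receptor, lower (-0.57 ± 0.04, adjusted p = 1.03e-05).

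For the 4 family genes whose group means spanned at least 1 on the log2 scale, the 3 genes most like each over the 8 libraries were listed by Pearson's r, as a description over libraries that share 4 groups. Ereg was most like Gm6093, Tmem74 and Ugcg (r = 0.9993 each). Ugcg, which makes glucosylceramide, was at 11.7 FPKM in KO with IL-6 and 11.7 FPKM in untreated KO, against 39.2 FPKM in WT with IL-6 and 23.8 FPKM in untreated WT. Areg was most like Wdr75 (0.9745), Hacd3 (0.9708) and Mrto4-ps1 (0.9653), the last a pseudogene and so uncertain. Pearson's r does not measure the size of a change. In WT with and without IL-6, Wdr75 was at 19.0 and 15.7 FPKM and Hacd3 at 40.2 and 33.6 FPKM. Areg was at 1.56 and 0.169 FPKM in the same groups, a far larger fold. Hbegf was most like Cdo1 (0.9985), Icosl (0.9981) and Unc5c (0.9975), and Btc most like Pctp (0.9962), Tmem260 (0.993) and Ift122 (0.9927). Cdo1, a cysteine dioxygenase, was at 2.53 FPKM in KO with IL-6 and 2.76 FPKM in untreated KO, against 8.69 FPKM in WT with IL-6 and 16.7 FPKM in untreated WT.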

How the data were processed

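Total RNA of 8 MEF samples (4 groups, 2 libraries each) was isolated with an RNeasy kit and made into TruSeq stranded mRNA libraries, per the labels' protocols. Reads were processed with HISAT2 and Cufflinks 2.2.1 on GRCm38.p6, per the submitters' processing notes. The deposited files give FPKM per transcript, the authors' normalization by length and depth. The annotation release and the strand setting are not given in the sources used here. No read counts were used.

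FPKM of 142869 transcripts was summed to 55358 genes by the name before the final hyphen and 3 digits. limma 3.58.1 in R 4.3.3 was fitted to log2(FPKM + 1) of the 13693 genes that reached 1 FPKM in 2 or more of the libraries, with a separate mean for each of the 4 groups in a joint fit (residual degrees of freedom, 4), an intensity trend and Benjamini-Hochberg adjustment within each comparison. The same was done for 33179 transcripts. Results passed at an adjusted p below 0.05. All tests are two-sided.

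Depth and a mean fragment length of 170 to 180 nt were fitted to the low values of genes with 1 transcript; 99.1 to 100.0% of 231 to 267 such values per library then lay within 0.1 of a whole fragment, which describes the fit and is no test. Fragment intervals cover counting error only.

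The 9 genes, the lists around them and the tests were chosen with earlier results of these data known. Named genes are the 9, the other family genes, up to 2 called genes with the smallest p per list and comparison together with those called in the difference between the IL-6 changes, genes flanking the chromosome 5 group, and the 3 genes most like each wide-ranging member. Alternatives were quantile, equal-total and median-ratio scaling, no filter and one of 5 FPKM, pseudocounts of 0.1 and 5, no intensity trend, a block for the replicate number, fitting just the groups of a comparison, and leaving out each library. Sequences and positions come from RefSeq (GRCm38.p6) and GENCODE M21 (GRCm38). Tables and figures were made in Python 3.11.15 with pandas 2.3.3, numpy 2.4.6 and matplotlib 3.10.9.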

Additional observations from a re-analysis of the deposited data

Results flagged for a closer look

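For 3 of the 9 genes the IL-6 change in KO differed from that in WT by the test of the difference itself. For Ereg it was -1.52 (KO change -0.02, WT change 1.51). For Areg it was -1.18 (KO change -0.05, WT change 1.14), on few fragments in every group but WT with IL-6. For Hbegf it was 0.44 (KO change -0.09, WT change -0.53). The Ereg call held under every alternative run, while the Areg and Hbegf calls were each lost under several. Ereg was testable only through the 4 WT libraries, treated and untreated, in which it was high. Areg was testable only through the 2 treated WT libraries, the high side of its IL-6 change. The cells of the genotypes also differed in sex and in mesothelial markers, and the part of sex and cell make-up in the 3 differences was not tested.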

How the results depend on the processing

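No call among the 9 genes changed direction under any alternative. For IL-6 in KO, the count over all genes was 3, and it was 5 with a filter of 5 FPKM, 7 with no filter, and 0 to 6 with 1 library left out. For IL-6 in WT it was 2150, 1430 when only the groups compared were fitted, and 1143 to 1777 with 1 library left out. The difference between the IL-6 changes was called for 830 genes, 521 with no filter (more genes tested), and 397 to 528 with 1 library left out. Of the 9 family genes, 4 were called for IL-6 in WT, and 2 to 4 with 1 library left out; leaving out either treated WT library takes Areg under the filter. For the difference between the changes 3 were called, 1 with no filter and 1 to 2 with 1 library left out, so Ereg was the 1 gene of the 9 that stayed called in all of them.

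Same-numbered libraries deviated from their group means with correlations of -0.0973 to 0.0549, so no shift shared by a replicate number was seen. With 2 libraries a group these values cannot show whether same-numbered libraries were paired by culture or batch. With the replicate block the counts were 1696 for IL-6 in WT and 564 for the difference between the changes, of which 2 were family genes. With 2 libraries a group, a lone library left in a group is assumed to vary like the others. For Areg, 3 fragments correspond to 0.0617 to 0.0778 FPKM.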
